A study of Mus musculus with 12 samples.

Results

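Intergenic regions that carried H4K12ac in most but not all mice were examined. Overlapping autosomal peaks of the 10 deposited peak lists were merged into 256014 regions. Of these, 3505 were kept, which had a peak in 7, 8 or 9 lists, lay outside every annotated gene body and were more than 10 kb from every annotated transcription start site (TSS). The lists came from H4K12ac ChIP-Seq of neuronal nuclei sorted by FACS from the whole hippocampus of 5 Tip60 cKO mice and 5 control mice. Tip60 cKO mice carried the tamoxifen-inducible CaMKCreERT2 driver, and both of their Tip60 alleles were floxed. Controls carried the floxed gene without the driver, and mice of both genotypes had received tamoxifen. The labels describe all mice as adult males of strain C57BL/6J at an age of 3 months. The study's methods instead give a C57BL/6 N background and mice of either sex. The driver acts in excitatory neurons of the forebrain and not in glia or progenitors, so the sorted neuronal nuclei also include neurons in which it does not act. A lower level per nucleus and fewer nuclei with the mark cannot be told apart. The peaks of each genotype were called against 1 input library, so the inputs have no replicates.

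Histone H4 acetylated at lysine 12 marks accessible chromatin at promoters and at distal elements. TIP60, the product of Kat5, is one of the acetyltransferases that place this mark, and bromodomain proteins bind it. Acetylated regions far from genes are where many enhancers lie, and these can act on promoters a long way off. The nearest gene is therefore used here as a label of position and not as a target.

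Sequence of 300 bases around the summit is given for regions on which the results turn, from the GRCm38 reference assembly and on the plus strand. The regions near Abr and Npas2 are shown because they were the only intergenic regions that limma called between the genotypes with the main settings. Tmem174 marks the region with the highest mean rank score, and Zbtb18, Klf4 and Grik3 mark the top regions next to a transcription factor of excitatory neurons, an immediate early gene and a glutamate receptor gene. Capitals mark matches to the motifs searched, which are spelled out further on.
Window near Abr (chr11:76639595-76639894): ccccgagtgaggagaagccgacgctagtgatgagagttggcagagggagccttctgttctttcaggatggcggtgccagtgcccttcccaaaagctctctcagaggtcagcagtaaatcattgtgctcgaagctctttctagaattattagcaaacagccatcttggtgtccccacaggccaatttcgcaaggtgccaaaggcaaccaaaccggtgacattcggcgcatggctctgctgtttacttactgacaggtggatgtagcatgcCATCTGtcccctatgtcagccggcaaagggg
Window near Npas2 (chr1:39103637-39103936): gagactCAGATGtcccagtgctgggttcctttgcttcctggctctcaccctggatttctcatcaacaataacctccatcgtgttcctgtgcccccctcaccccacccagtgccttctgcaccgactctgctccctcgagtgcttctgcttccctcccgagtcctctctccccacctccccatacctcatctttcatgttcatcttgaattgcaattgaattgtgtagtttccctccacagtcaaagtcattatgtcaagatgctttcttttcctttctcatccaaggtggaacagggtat
Window near Tmem174 (chr13:98587701-98588000): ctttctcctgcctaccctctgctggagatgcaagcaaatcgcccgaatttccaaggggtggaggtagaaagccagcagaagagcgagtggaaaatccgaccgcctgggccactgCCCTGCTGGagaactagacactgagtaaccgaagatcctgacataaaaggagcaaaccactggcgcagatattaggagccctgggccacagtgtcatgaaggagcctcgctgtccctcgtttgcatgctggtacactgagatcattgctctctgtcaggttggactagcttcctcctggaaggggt
Window near Zbtb18 (chr1:177497904-177498203): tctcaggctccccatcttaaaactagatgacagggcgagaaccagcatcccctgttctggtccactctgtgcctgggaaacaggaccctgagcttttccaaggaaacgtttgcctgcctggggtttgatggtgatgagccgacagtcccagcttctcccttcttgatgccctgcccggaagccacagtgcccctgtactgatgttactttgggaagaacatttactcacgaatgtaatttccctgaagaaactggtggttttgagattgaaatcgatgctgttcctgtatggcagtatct
Window near Klf4 (chr4:55480349-55480648): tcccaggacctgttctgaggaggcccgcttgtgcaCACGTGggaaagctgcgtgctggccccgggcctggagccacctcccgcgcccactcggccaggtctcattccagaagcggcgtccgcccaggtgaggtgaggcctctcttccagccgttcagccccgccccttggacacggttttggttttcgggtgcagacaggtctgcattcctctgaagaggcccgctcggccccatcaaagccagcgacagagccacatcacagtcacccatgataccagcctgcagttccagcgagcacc
Window near Grik3 (chr4:125356214-125356513): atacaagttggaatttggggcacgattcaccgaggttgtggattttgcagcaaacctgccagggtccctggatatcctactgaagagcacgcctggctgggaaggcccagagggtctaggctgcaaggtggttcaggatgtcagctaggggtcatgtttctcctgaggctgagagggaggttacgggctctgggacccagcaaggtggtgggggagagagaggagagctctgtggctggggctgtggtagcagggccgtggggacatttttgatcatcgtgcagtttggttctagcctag
The windows near Abr and Npas2 each held 1 match to the E-box CAGATG, the Tmem174 window 1 match to the CTCF core and the Klf4 window 1 match to the E-box CACGTG. The windows near Zbtb18 and Grik3 held no letters of any of the 14 motifs.

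A further set is shown because the largest group of these regions in 1 interval turned out to be copies of 1 sequence. The window near Ptprd held short units repeated side by side, and the pair between Hrh1 and Atg7 on chromosome 6 shared 262 of 285 words of 16 bases.
Window near Ptprd (chr4:78606463-78606762): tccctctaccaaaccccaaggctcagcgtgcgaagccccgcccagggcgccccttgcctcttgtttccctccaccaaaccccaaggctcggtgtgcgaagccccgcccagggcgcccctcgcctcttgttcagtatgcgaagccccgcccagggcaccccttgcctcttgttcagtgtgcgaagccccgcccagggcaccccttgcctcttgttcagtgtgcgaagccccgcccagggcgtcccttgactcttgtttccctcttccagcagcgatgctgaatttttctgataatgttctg
Left copy between Hrh1 and Atg7 (chr6:114504675-114504974): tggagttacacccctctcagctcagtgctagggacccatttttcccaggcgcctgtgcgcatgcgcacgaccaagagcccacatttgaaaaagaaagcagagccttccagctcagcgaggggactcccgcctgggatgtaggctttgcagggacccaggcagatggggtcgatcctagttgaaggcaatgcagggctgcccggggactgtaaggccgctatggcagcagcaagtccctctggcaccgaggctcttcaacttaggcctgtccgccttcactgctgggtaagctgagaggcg
Right copy between Hrh1 and Atg7 (chr6:114507031-114507330): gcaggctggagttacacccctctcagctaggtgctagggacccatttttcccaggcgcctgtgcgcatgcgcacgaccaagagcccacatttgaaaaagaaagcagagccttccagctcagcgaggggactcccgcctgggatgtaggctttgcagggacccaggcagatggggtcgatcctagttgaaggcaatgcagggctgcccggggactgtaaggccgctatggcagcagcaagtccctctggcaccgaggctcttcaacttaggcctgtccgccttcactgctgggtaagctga
No capitals stand in the pair because it is printed to show the repeat, and the Ptprd window held no motif match.

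The regions were of medium size and strength. Their median width was 926 bp, from 326 to 4233 bp, and the mean fold enrichment over a region's peaks ranged from 2.19 to 6.06 with a median of 3.72. The number of lists chose the regions, so the following values are a description. Of the 3505 regions, 1135 had a peak in 7 lists, 1124 in 8 and 1246 in 9. Median width was 784, 927 and 1077 bp in these classes, and median fold enrichment 3.59, 3.69 and 3.91. Just outside the limits, 1277 intergenic regions in 6 lists had a median width of 710 bp and a fold enrichment of 3.49, and 2252 regions in all 10 lists had 1587 bp and 4.63. Width and enrichment were thus greater with every further list. Distance did not separate them in this way: 290 regions at 8 to 10 kb from a TSS had a median width of 903 bp, against 910 bp in 298 regions at 10 to 12 kb.

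Most regions lay far beyond the limit of the rule. The median distance to the nearest TSS was 28064 bp, 909 regions (25.9%) were more than 50 kb away and 61 more than 200 kb. The nearest TSS belonged to a protein-coding gene at 1184 regions (33.8%), to a lincRNA at 901 (25.7%) and to a processed pseudogene at 647 (18.5%). The regions lay in 1857 intervals between genes, of which 1122 held a single one, while 113 intervals with 5 or more held 810 (23.1%). Chromosome 11 had the most regions per length open to the rule, at 6.94 per Mb, against 3.86 per Mb over all autosomes and 2.49 per Mb on chromosome 10. A region present in all 10 lists lay within 10 kb of 42.6% of the regions, at a median distance of 14359 bp. For the 11287 intragenic regions in 7 to 9 lists at the same distance from TSSs, which serve as the comparison set, that median was 9130 bp.

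The 3 most remote regions lay close to each other in a gene desert on chromosome 1. Their nearest TSSs, Gm37604 and Gm18183, were 423 to 451 kb away, and the nearest protein-coding TSS, B3galt2, 1634 to 1670 kb. The region at 141969681 to 141970233 had a fold enrichment of 4.01, 4.32 and 4.28 in 3 Tip60 cKO mice and of 4.02, 4.47, 4.31, 5.62 and 4.79 in the 5 controls. Its mice with a peak overlapped between the genotypes, and 2 Tip60 cKO mice had no peak. Another region of this desert, at 142005216 to 142006273, was found in 4 Tip60 cKO and 3 control mice.

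Peak calling used 22864189 to 37923809 tags per library. The lists of Tip60 cKO mice held 64012 to 134930 autosomal peaks and those of controls 93136 to 135680. The shortest list and the fewest tags belonged to Tip60 cKO mouse 5. A peak lay within 2 kb of the TSS in all 10 lists for 5 of 5 pan-neuronal markers (such as Rbfox3) and 4 of 5 markers of excitatory hippocampal neurons (such as Neurod6 and Slc17a7). This held for 0 of 5 interneuron markers, with none at Gad1 and Sst in any list, for 1 of 5 astrocyte markers (Slc1a2), 1 of 5 oligodendrocyte markers (Mbp), 0 of 5 microglia markers and 0 of 4 endothelial markers. Some markers of other cells had peaks in fewer lists, such as Gfap of astrocytes in 9, Cdh5 of endothelium in 8 and P2ry12 of microglia in 5. The fold enrichment at Mbp was 6.90 to 9.74, and the part of other cells in the results was not tested.

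A peak at the 3505 regions was found least often in Tip60 cKO mouse 5. In the Tip60 cKO mice 1 to 5, 87.9, 81.4, 80.5, 76.9 and 37.2% of the regions had a peak. In the control mice 1 to 5 these shares were 89.1, 91.0, 89.1, 75.8 and 94.2%. Control mouse 4, which had the shortest list of the controls, lay among the Tip60 cKO mice. Tip60 cKO mouse 5 lacked a peak at 2200 regions (62.8%), and at 680 regions, 54.6% of those in 9 lists, it was the only mouse without one. The next most frequent patterns were no peak in Tip60 cKO mice 4 and 5 (166 regions) and none in control mouse 4 alone (132).

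**Figure D1:**
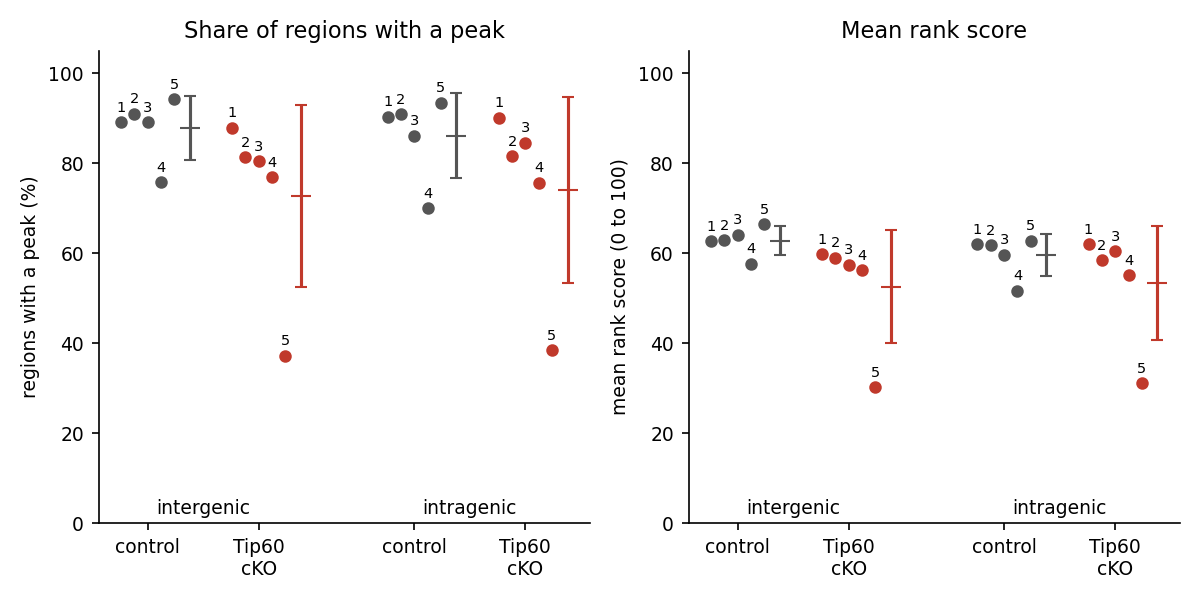
Share of regions with a peak (left, percent) and mean rank score (right, 0 to 100) in each mouse for the 3505 intergenic and the 11287 intragenic regions in 7 to 9 lists. Points are mice with their numbers, and bars give mean ± SD (n = 5); Tip60 cKO mouse 5 lies apart at 37.2% and at a mean rank score of 30.2 for the intergenic regions.

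The deletion was compared with the controls by the rank score, which is the percent rank of a region's strongest peak by fold enrichment among all 143941 regions in at least 2 lists, and 0 without a peak. It thus contains the presence of a peak, on which the regions were chosen over both genotypes together, and it moves with the length of a list. It compares a region with the others of the same library, so a change shared by all peaks would not show. The mean rank score of the regions was 59.8, 59.0, 57.4, 56.2 and 30.2 in the Tip60 cKO mice and 62.7, 62.9, 64.2, 57.7 and 66.4 in the controls. Controls 1, 2, 3 and 5 were above all Tip60 cKO mice, and control mouse 4 was below 2 of them. The means were 52.5 ± 12.6 and 62.8 ± 3.21 (SD, n = 5), a difference of -10.2, given without a test because absent peaks enter it. Without Tip60 cKO mouse 5 the difference was -4.65. It was -4.52 among the mice of lane 7 and -18.8 among those of lane 8, where mouse 5 was run.

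The share of regions with a peak was 72.8 ± 20.3% in the deletion and 87.9 ± 7.03% in the control (SD, n = 5), likewise without a test. The lowest share in each genotype belonged to its shortest list. When the 64012 strongest peaks of every library were used and the regions chosen anew, the difference in share was -9.04 percentage points and that in rank score -6.27. Peaks at the regions, relative to the median of all peaks of their library on a log2 scale, had a fold enrichment of 0.027 in Tip60 cKO and 0.092 in control mice (p = 0.0397, two-sided exact permutation test; 0.086 after Benjamini-Hochberg adjustment over 13 comparisons). Pileup, the fragment height before division by the background, was 0.034 and 0.095 (p = 0.0794, exact permutation test, adjusted 0.126), and length 0.089 and 0.28 (p = 0.0397, exact permutation test, adjusted 0.086). None of these 3 comparisons was below 0.05 after adjustment. With equal numbers of peaks these differed by -0.033 (exact permutation test, p = 0.0556), -0.016 (p = 0.516) and -0.099 (p = 0.00794). Each value takes only the regions with a peak in that mouse, 1305 in Tip60 cKO mouse 5 and 3301 in control mouse 5. The sets thus differ between mice and depend on the peaks that chose the regions. With a peak in at least 3 mice of each genotype the differences were -0.060 (exact permutation test, p = 0.0556), -0.061 (p = 0.0794) and -0.19 (p = 0.032). For both fold enrichment and length, leaving out 1 mouse put p above 0.05 for 7 of the 10 mice. The direction was shared by intergenic regions in all 10 lists, where the gaps were larger. There relative fold enrichment averaged 0.335 after the deletion against 0.424 without it, pileup 0.342 against 0.472 and length 0.868 against 1.11 (n = 5). The genotypes overlapped in each, and these gaps were not tested. Lower values were thus not particular to regions in 7 to 9 lists.

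Single regions were mostly lower in the Tip60 cKO mice, though few apart from the rest. The mean rank score was lower at 2474 of 3505 regions (70.6%), with a median difference of -13.1, against 56.9% and -2.19 over all 143941 regions. It was lower at 66.7% of all regions in 7 to 9 lists, with a median difference of -10.9, and at 63.4% of the intragenic ones, with -8.68. Without Tip60 cKO mouse 5 it was lower at 2055 (58.6%) and higher at 1450. More control than Tip60 cKO lists held a peak at 2359 regions (67.3%), more Tip60 cKO lists at 690 (19.7%). At intragenic regions these shares were 61.5 and 23.5%. With Tip60 cKO mouse 5 left out, the control had the larger share of lists at 1860 regions (53.1%) and Tip60 cKO at 965 (27.5%). All 5 controls had a peak at 1862 regions (53.1%) and all 5 Tip60 cKO mice at 427 (12.2%), against 47.0 and 14.3% of intragenic regions. The count of 427 leaves out 680 regions at which Tip60 cKO mouse 5 alone had no peak. A peak in at least 3 more control than Tip60 cKO lists was found at 321 regions (9.16%), against 8.57% over all regions. The opposite held for 54 (1.54%), against 2.79%. In 7 to 9 lists only 5 against 2 lists can meet this limit, so only the 1135 regions in 7 lists could, and these shares are not comparable with those over all regions. At intragenic regions they were 8.13 and 1.87%.

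Every Tip60 cKO mouse was below every control at 119 regions (3.4%) and above every control at 49 (1.40%), against 1.34% and 0.787% over all regions. Only a region in 5 or more lists can meet this, so these shares are not comparable, and at intragenic regions it was 1.96% in either direction. At an unadjusted p under 0.05 by limma, 436 regions (12.4%) were lower and 133 (3.79%) higher, against 8.33% and 3.69% over all regions. Over all regions in 7 to 9 lists these shares were 10.2 and 4.45%, and at intragenic ones 9.48 and 5.12%. After Benjamini-Hochberg adjustment over all 143941 regions, limma called 1 region lower and 1 higher, while 0.477% and 0.0868% of all regions were called. Of all 25579 regions in 7 to 9 lists, near or inside genes included, 3 were called lower and 7 higher. A region in 7 to 9 lists cannot lack a peak in all 5 mice of 1 genotype, while other regions can. The shares over all regions, called or at an unadjusted p, are therefore not comparable either. The counts of 1 and 1 at intergenic regions became 37 and 11 with equal numbers of peaks, and 0 and 0 when ranked by pileup.

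The region called lower lay 16.5 kb upstream of Abr (chromosome 11, 76638813 to 76640227). It had a fold enrichment of 3.06 and 2.4 in Tip60 cKO mice 1 and 3 and no peak in the other Tip60 cKO mice. The controls 1 to 5 had 4.23, 6.30, 5.45, 4.08 and 6.70, all above the Tip60 cKO mice. The rank score was 20.1 ± 27.6 and 89.4 ± 7.16 (SD, n = 5), a difference of -69.3 with an SE of 12.4 (limma, adjusted p = 0.0436). The pileup at its peaks was 23 and 17 fragments in the Tip60 cKO mice and 19, 30, 23, 15 and 34 in the controls, so that these heights overlapped. Local background at these peaks, relative to the genome-wide level of the library, averaged 1.53 in the 2 Tip60 cKO mice and 1.07 in the 5 controls.

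The region called higher lay 89.8 kb upstream of Npas2, a transcription factor of the circadian clock family, and 20.1 kb from the TSS of the unclassified transcript Gm37091 (chromosome 1, 39103442 to 39103952). The Tip60 cKO mice 1 to 5 had a fold enrichment of 5.75, 5.07, 4.38, 4.47 and 3.90. Only controls 1 and 3 had a peak, at 2.56 and 2.86, below all Tip60 cKO mice. The rank score was 88.1 ± 5.35 and 18.8 ± 25.9 (SD, n = 5), a difference of 69.3 with an SE of 11.6 (limma, adjusted p = 0.0294). The background went the other way, at 1.0 in Tip60 cKO and 1.53 in control mice.

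The differences stayed large, from -77.5 to -64.3 near Abr and from 64.6 to 77.1 near Npas2 with 1 library left out, while the calls depended on the setting. In each region 3 of the 5 scores of the lower genotype were 0 for an absent peak, so both tests draw on the presence of peaks, on which the regions were chosen over all lists. With equal numbers of peaks no Tip60 cKO mouse kept a peak near Abr and no control near Npas2, and no p is given for these tied zeros. The adjusted p was 0.0079 and 0.034 with q below 0.01 (limma). It was 0.0675 and 0.0807 with a prior made both mean-dependent and robust, which ended both calls (limma). By pileup in place of fold enrichment, no region was called in either direction, and it was 0.418 and 0.184 (limma). On simulated data this test made more false calls than its adjusted p-values state. Leaving out 1 library ended the call of Abr for 8 of the 10 libraries (all but Tip60 cKO mice 1 and 3) and that of Npas2 for 8 (all but controls 1 and 3). The part of the background in both differences was not tested.

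Compared with intragenic regions, the intergenic ones had lower values in Tip60 cKO than in control mice in rank score, fold enrichment and length. For neither fold enrichment nor length was p below 0.05 after adjustment. The comparison with intragenic regions is made within each mouse, between 2 sets chosen by the same number of lists and the same distance from TSSs. The mean rank score of intergenic minus intragenic regions was -2.20, 0.54, -3.01, 1.13 and -0.92 in the Tip60 cKO mice and 0.71, 1.17, 4.49, 6.04 and 3.57 in the controls. The means were -0.89 ± 1.76 and 3.19 ± 2.24 (SD, n = 5), a difference of -4.09, again without a test. It was -4.08 without Tip60 cKO mouse 5, and -3.68 and -4.70 in lanes 7 and 8. Relative fold enrichment differed by -0.053 on the log2 scale (p = 0.0159, exact permutation test, adjusted 0.0688). All lists of a genotype share 1 input, so this p cannot tell the genotype from its input. The median background in Tip60 cKO and control mice was 1.01 and 1.09 at intergenic regions, and 1.04 and 1.15 at intragenic ones. The share of regions with a peak differed by -2.98 percentage points, with overlapping mice.

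The difference in peak length between intergenic and intragenic regions did not overlap between the genotypes. Peaks at intergenic regions were shorter than at intragenic ones in all 5 Tip60 cKO mice, with differences of -0.087, -0.0093, -0.078, -0.018 and -0.011 on the log2 scale, and longer in all 5 controls, with 0.0017, 0.0097, 0.064, 0.10 and 0.055. The difference between the genotypes was -0.088 (exact permutation test, p = 0.00794, adjusted 0.0688), which likewise cannot be told apart from the shared inputs. The difference in length was -0.083 in lane 7 and -0.094 in lane 8, and -0.072 with equal numbers of peaks (exact permutation test, p = 0.151). Pileup was not set apart in this way: it differed by -0.033 (exact permutation test, p = 0.444), with exact ties at 0 in 8 of 10 mice because pileups are whole fragments. With the mean over regions in place of the median, an alternative chosen after the data were seen, it differed by -0.024 (exact permutation test, p = 0.0952). These differences are small, and regions more than 50 kb from every TSS gave -0.064 in fold enrichment (exact permutation test, p = 0.00794) and -0.035 in length (exact permutation test, p = 0.468).

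**Figure D2:**
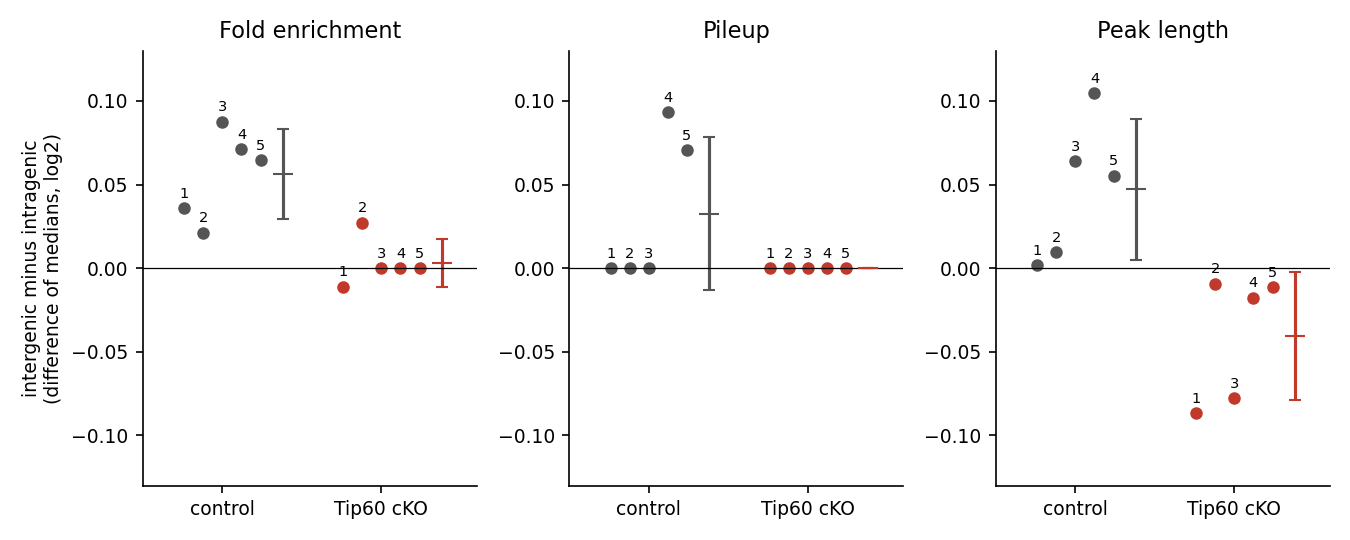
Difference between intergenic and intragenic regions in each mouse, on the log2 scale, of the median relative fold enrichment, pileup and peak length. Points are mice with their numbers and bars give mean ± SD (n = 5); for length all 5 Tip60 cKO mice lie below 0 and all 5 controls above.

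Compared with the 2252 intergenic regions in all 10 lists, none of the 3 measures passed the test. Intergenic regions in 7 to 9 lists were weaker there by construction. Their relative fold enrichment minus that of the regions in all lists was -0.31 ± 0.058 (SD, n = 5) after the deletion and -0.33 ± 0.045 without it (exact permutation test, p = 0.5). For pileup the difference between genotypes was 0.069 (exact permutation test, p = 0.0714), and for length 0.050 (exact permutation test, p = 0.603).

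The local background differed between the genotypes over all peaks, not at these regions alone. Of the peaks at the intergenic regions, 53.6 ± 4.0% had a background at the genome-wide level in Tip60 cKO mice and 34.4 ± 3.02% in controls (SD, n = 5). The background comes from 1 input library per genotype that all its 5 lists share, so these are not replicates of the background, and input and genotype cannot be told apart. These shares were 47.5 and 23.1% at intragenic regions, 49.1 and 26.4% at intergenic regions in all 10 lists and 55.4 and 31.6% over all peaks. Fold enrichment divides by this background and pileup does not. Its part in the difference between intergenic and intragenic regions was not tested.

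Region by region, a higher background in Tip60 cKO mice went with a lower rank score there. The ratio of the background in Tip60 cKO to that in control mice had a median of 0.966 and ranged from 0.431 to 2.09. Where it was above 1.3, 138 of 139 regions had the lower rank score in Tip60 cKO mice, with a median difference of -39.9. Where the control background was more than 1.3 times that in Tip60 cKO mice, 140 of 404 did (34.7%), with a median difference of 11.7. Among the 1684 regions whose backgrounds were within 1.1 times of each other, 1284 (76.2%) were lower, with a median difference of -15.3. Over the 3505 regions Pearson's r of the log2 background ratio and the rank score difference was -0.515, a description only, since both contain the background and the regions share libraries and 2 inputs. Ranked by pileup, which is not divided by the background, the mean rank score differed by -9.90 and was lower at 2498 regions. Ranked by fold enrichment these values were -10.2 and 2474. Both scores are 0 without a peak, and the peaks were called against the same inputs. The score by pileup is therefore not free of the background either.

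**Figure D3:**
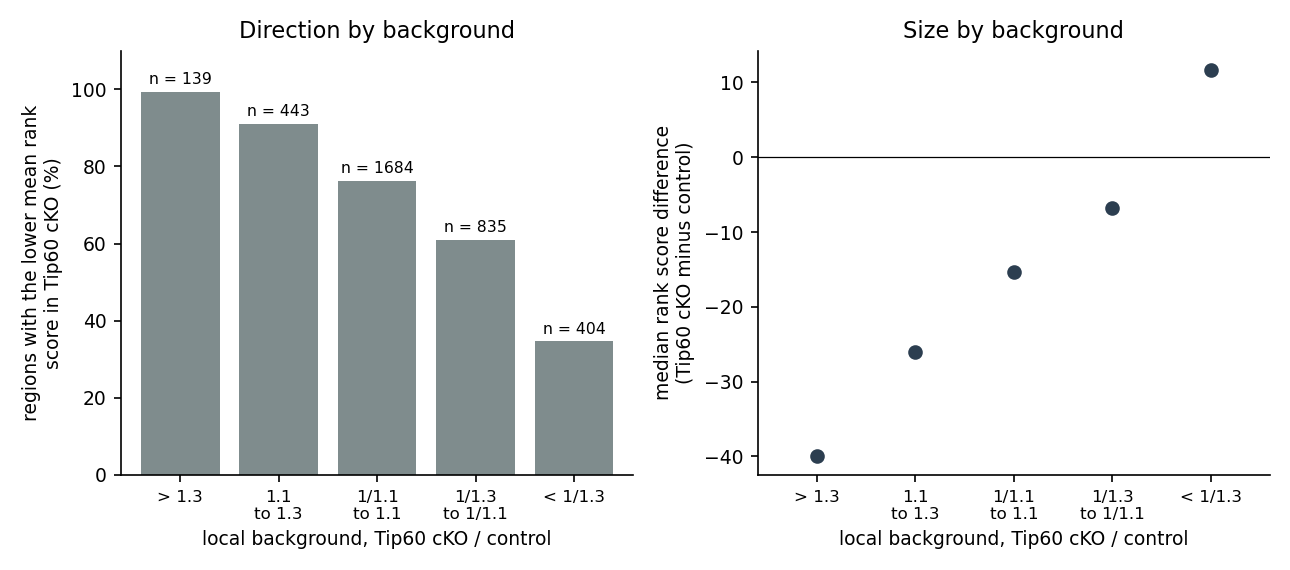
Intergenic regions grouped by the ratio of local background in Tip60 cKO to control mice, with the share that had the lower mean rank score in Tip60 cKO mice (left, percent) and the median rank score difference (right). Bars and points are groups of regions with their number n; the share falls from 99.3% of 139 regions at the left to 34.7% of 404 at the right.

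The strongest regions were alike in pattern. The 8 with the highest mean rank score all had a peak in 5 control and 4 Tip60 cKO mice, and 7 of them lacked one in Tip60 cKO mouse 5 only. The highest score, 83.3, belonged to a region 49.2 kb from the TSS of Tmem174, which encodes a membrane protein (chromosome 13, 98586405 to 98588214). Fold enrichment there was 4.52, 4.63, 5.26 and 5.37 in Tip60 cKO mice 1 to 4 and 6.36, 5.28, 6.13, 5.87 and 6.16 in the controls. The difference in rank score was -21.8 with an SE of 16.97 (limma, adjusted p = 0.567), and the groups overlapped apart from mouse 5. The others lay near Vrk1 (a nuclear kinase), Synpo (synaptopodin of the spine apparatus), Mroh4, Ptprd (a synaptic adhesion receptor), Prss38, Arl6ip6 and Fra10ac1. Their differences ranged from -29.6 near Synpo to -15.7 near Ptprd and none passed limma's test. These values rest on the mouse without a peak. Without Tip60 cKO mouse 5, the difference was -3.74 near Tmem174, -12.8 near Synpo, -3.36 near Vrk1, -3.28 near Prss38, -1.60 near Fra10ac1, 2.12 near Mroh4 and 2.74 near Ptprd, and near Arl6ip6 it was -5.70 without Tip60 cKO mouse 3.

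**Figure D4:**
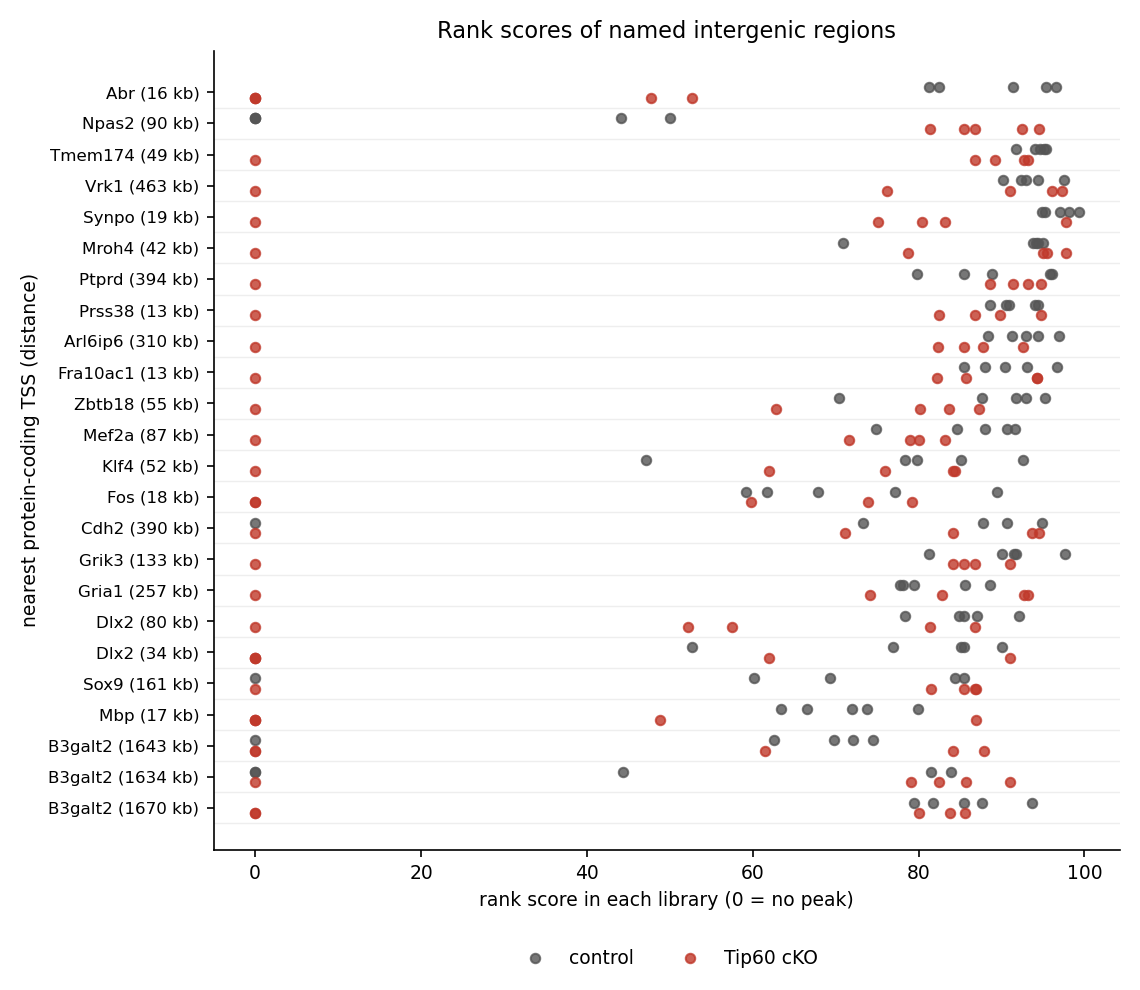
Rank scores of 24 named regions in each of the 10 mice, by the nearest protein-coding TSS and its distance in kb, with 0 for a mouse without a peak. Each point is a mouse; near Abr all Tip60 cKO mice are below all controls and near Npas2 all are above, while at most other regions the groups overlap once mice without a peak are set aside.

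Transcription factors of hippocampal excitatory neurons were often the nearest protein-coding gene. Of 25 such genes 12 (48.0%) were nearest to at least 1 region, with 54 regions in all, against 1664 of 20780 autosomal protein-coding genes (8.01%). The intergenic space around the genes was not taken into account. Bcl11b, a zinc finger factor of CA1 and dentate gyrus neurons, had 13 regions at 37942 to 206985 bp. Zbtb18, a repressor in cortical and hippocampal neurons, had 12 at 45593 to 131648 bp. Rfx3 had 6, Bcl11a 5, and Mef2a, an activity-regulated factor, and Prox1, which keeps granule cell identity, 4 each. At 41 of the 54 regions more control lists held a peak and at 5 more Tip60 cKO lists, beside 67.3% and 19.7% of the 3505 regions. The median rank score difference was -17.5, beside -13.1 over the 3505 regions.

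The top region of this list lay 55.1 kb from the TSS of Zbtb18 (chromosome 1, 177497447 to 177498675). Its fold enrichment was 4.05, 3.27, 4.59 and 4.13 in Tip60 cKO mice 1, 2, 3 and 5 and 5.36, 5.54, 4.87, 3.53 and 6.19 in the controls. Tip60 cKO mouse 4 had no peak, and control mouse 4 was in the range of the Tip60 cKO mice. The rank score differed by -24.8 with an SE of 15.9 (limma, adjusted p = 0.432), and by -9.12 without Tip60 cKO mouse 4. A region 86.7 kb upstream of Mef2a gave -23.2 with an SE of 15.2 (limma, adjusted p = 0.45), and -7.50 without Tip60 cKO mouse 5.

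Transmitter receptor genes followed. Of 27 transmitter receptor genes 8 (29.6%) were nearest to a region, with 38 regions. Gria1 and Gria2, which encode AMPA receptor subunits, had 13 and 9, Grin2a, an NMDA receptor subunit, 6, and Grik3, a kainate receptor subunit, 5. The metabotropic glutamate receptor gene Grm4 had 1, and the GABA-A receptor genes Gabra5, Gabrb2 and Gabra2 had 2, 1 and 1. More control lists held a peak at 24 and more Tip60 cKO lists at 8, beside 67.3% and 19.7% of all 3505 regions. The median rank score difference was -11.9, beside -13.1 over all of them. The region 133 kb upstream of Grik3 (chromosome 4, 125355588 to 125357435) had a fold enrichment of 4.52, 4.85, 4.38 and 4.25 in Tip60 cKO mice 1 to 4 and of 5.29, 5.28, 5.22, 4.08 and 7.15 in the controls. All but 1 control were above the Tip60 cKO mice, and the rank score differed by -21.0 with an SE of 16.5 (limma, adjusted p = 0.576), or by -3.60 without Tip60 cKO mouse 5. The top region of Gria1, 257 kb upstream, had a difference of -13.3, which was 3.83 without Tip60 cKO mouse 5.

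Immediate early genes, which neuronal activity induces, had at most 1 such region. Of 25 genes 7 (28%), against 8.01% of all protein-coding genes, were nearest to 1 region each: Fos, Arc, Bdnf, Nr4a3, Klf4, Fosl2 and Nptx2. The region near Klf4, a zinc finger factor (chromosome 4, 55480246 to 55480810), had a fold enrichment of 4.32, 3.75, 3.29 and 4.25 in Tip60 cKO mice 1 to 4 and of 4.45, 2.84, 4.08, 5.36 and 4.17 in the controls. These overlapped, and the rank score differed by -15.3 with an SE of 16.6 (limma, adjusted p = 0.751), or 0.040 without Tip60 cKO mouse 5. The region 17.7 kb upstream of Fos (chromosome 12, 85455525 to 85456226) had 3.94, 3.25 and 3.64 in Tip60 cKO mice 1, 3 and 4. The controls had 4.94, 3.26, 4.04, 3.4 and 3.33. Its rank score differed by -28.5 with an SE of 17.3 (limma, adjusted p = 0.417), or by -17.8 without Tip60 cKO mouse 2 or 5, and its background was 1.42 and 1.51 in the 2 genotypes.

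Adhesion genes and genes of other cells completed the lists. Of 31 synaptic adhesion genes 6 were nearest to 7 regions, with a median rank score difference of -0.61. Of 18 interneuron genes only Dlx2, a homeobox factor, had regions, at 34.3 and 80.3 kb upstream. At the nearer one 2 Tip60 cKO mice had a fold enrichment of 4.85 and 3.29 and the 5 controls 4.45, 4.47, 5.22, 3.83 and 3.13, which overlapped. Its rank score differed by -47.5 with an SE of 18.9 (limma, adjusted p = 0.351). Of 17 glial and vascular genes Sox9, a factor of astrocytes, and Mbp, a myelin protein, had 2 regions each. The top region of Sox9, 161 kb upstream, had a rank score of 68.1 in Tip60 cKO and 59.9 in control mice and the top one of Mbp 27.1 and 71.2, and neither passed limma's test (adjusted p = 0.968 and 0.351). Near Sox9 the direction turned without control mouse 5, which had no peak there.

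The interval with the most regions was a tandem repeat. Between Hrh1, a histamine receptor gene, and Atg7, an autophagy gene, 31 regions lay in an interval of 159.8 kb on chromosome 6, or 19.4 per 100 kb, where the next interval by number had 16 at 2.92 per 100 kb. Among the 10 intervals with the most regions, the next by density had 10.6 per 100 kb. The 31 regions spanned 134.9 kb, and 96.0% of the words of 24 bases in this stretch occurred there more than once. Their most frequent single spacing was 2445 bp, at 3.10% of the words, and neighbouring summits were a median of 2876.5 bp apart. All 31 regions fell into 1 family by shared words, in which linked pairs had at least 20% of their words of 16 bases in common. Only 13 other regions belonged to such a family, in 3 families of 6, 4 and 3. In reads that match several copies the copies cannot be told apart, so the 31 are not independent, and how such reads were placed is not given in the sources used here.

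In this repeat the means of the genotypes stood the other way than over all regions. The mean rank score over the 31 regions was 55.8, 55.8, 61.5, 73.6 and 59.1 in the Tip60 cKO mice and 38.9, 58.9, 62.8, 61.9 and 36.0 in the controls. Tip60 cKO mouse 5 was within its group here by mean rank score, though it had the fewest peaks of the group, at 23 of 31. Controls 1 and 5 were lowest in both, with peaks at 19 and 18. The other controls lay within the range of the Tip60 cKO mice in mean rank score. The groups overlapped, at 61.2 ± 7.36 and 51.7 ± 13.2 (SD, n = 5). The rank score was higher in Tip60 cKO mice at 19 regions and lower at 12, with a median difference of 6.28, and differences of single copies ran from -47.1 to 56.97. The background was 1.021 ± 0.041 and 1.034 ± 0.019 (SD, n = 5) in the genotypes. The interval was picked for its number of regions and after its values were seen, so no test is given.

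**Figure D5:**
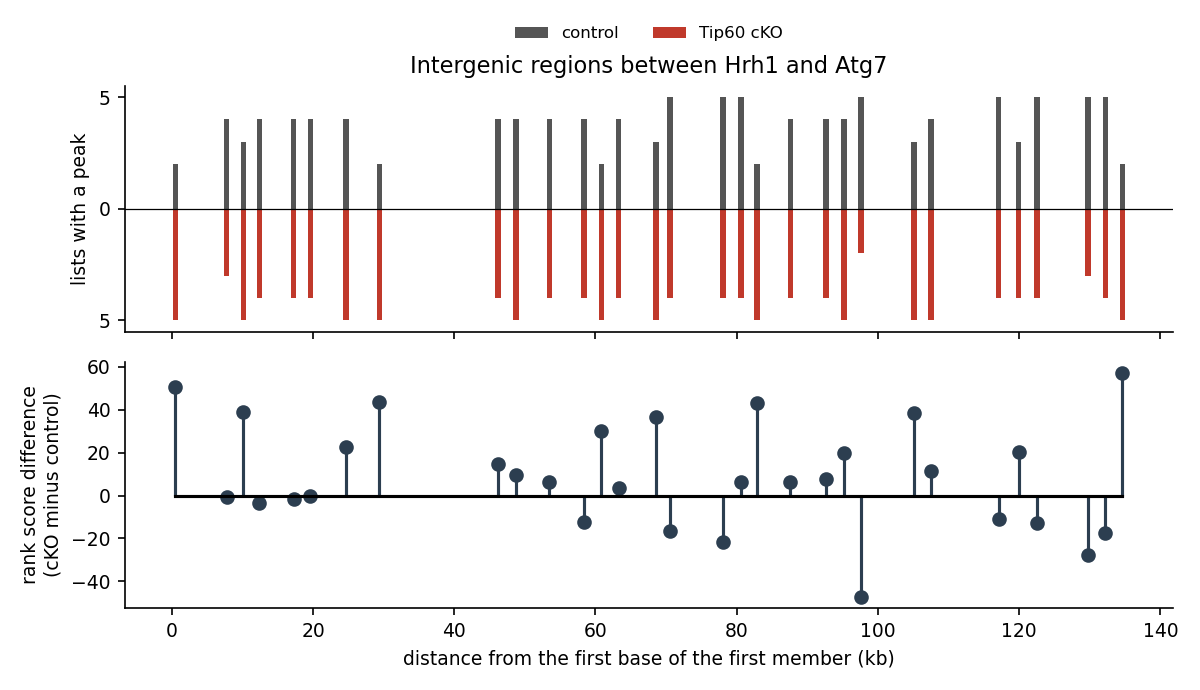
The 31 intergenic regions between Hrh1 and Atg7 by distance in kb from the first of them, with the number of lists with a peak (top, controls up and Tip60 cKO down, 5 at most) and the rank score difference, Tip60 cKO minus control (bottom). Each bar or point is a region; 19 differences are above 0 and 12 below.

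Other intervals with many regions were less compact. Between Emp1 and Gm25136 on chromosome 6, 14 regions had a mean rank score of 61.0 ± 16.1 (SD, n = 5) after the deletion and 52.9 ± 11.6 in the controls. Between Gm24957 and Gm36251 on chromosome 9, 16 regions had 48.1 ± 20.1 and 63.3 ± 7.36, and between Gm22603 and Gria1 on chromosome 11, 13 had 49.6 ± 23.5 and 59.9 ± 9.73. The genotypes overlapped in each of these.

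In sequence the regions resembled the intragenic ones. Median GC content of the 300 bases around the summit was 51.3%, against 52.0% in intragenic regions, 53.3% in intergenic regions in all 10 lists and 51.7% over all regions in at least 2 lists. CpG-rich windows, with at least 50% GC and an observed to expected CpG ratio of at least 0.6, were rare at 1.57% (55 regions), against 1.51, 6.26 and 9.17% in those sets. At least 20% of the words of 12 bases were repeated within the window at 56 regions (1.6%), the Ptprd window being one, against 2.46% of intragenic regions. Over the regions, Pearson's r of GC content and rank score difference was 0.015.

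The 14 motifs were searched as plain letters on both strands, where N is any base and none is contained in another. The share of windows with a match, in the intergenic regions and in all 143941 windows of the same length, was 29.9 and 25.1% for the E-box CAGATG and 25.3 and 22.8% for the E-box CAGCTG. It was 9.33 and 8.18% for the AP-1 site TGANTCA, 7.53 and 7.01% for the CTCF core CCANNAGGG and 5.31 and 3.8% for the homeobox core TAATTA. The intragenic regions had 27.8% with CAGATG and 3.85% with TAATTA. The EGR site GCGNGGGCG was found in 0.342 and 1.42%. The E-box CACGTG was in 4.71 and 5.07%. The remaining motifs, TGACGTCA (CRE), TATTTATAG (MEF2), GTTGCCATG (RFX), CCGGAAGT (ETS), GCGCATGCG (NRF1), ATGCAAAT (POU) and CCATTGT (SOX), were each in under 5% of the windows. The NRF1 site was in 17 windows, 12 of which belonged to the repeat between Hrh1 and Atg7. A match describes the letters only and is neither a bound site nor a cause.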

How the data were processed

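H4K12ac ChIP-Seq peak lists of 5 Tip60 cKO and 5 control mice were used, grouped by the genotype in their labels. According to the study's methods, reads were mapped with STAR to mm10 and duplicates removed with samtools. MACS 2.1.0.20140616 called peaks per library at a q threshold of 0.1 against the input of the genotype. The deposited pileup is a coverage signal at each summit, fold enrichment as deposited is a ratio to the local background, and the authors gave p and q values as −log10, which served only for the stricter threshold. The lists hold no counts per region, so no counting error is given. A region without a peak was under the threshold at that depth. The study's differential test on reads was not repeated.

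Peaks that shared at least 1 base were merged, and genes and TSSs of all types came from GENCODE M21 on GRCm38. Rank scores were compared with limma 3.58.1 (R 4.3.3) over 143941 regions, with Benjamini-Hochberg adjustment. When tested on simulated data, this step made more false calls than its adjusted p-values state. Values per mouse were compared by two-sided exact permutation tests (252 assignments, Python 3.11.15, scipy 1.17.1). Tests of shares and rank scores count among the 13 comparisons of the adjustment. Their p-values are not given, because absent peaks enter them. The methods call the controls littermates, but which mice shared a litter is not given in the sources used here, and the tests take all mice as independent. The background was recovered from pileup and fold enrichment and set against the genome-wide level. Named regions were those called by limma, the 8 of highest mean rank score, the strongest ones per gene list and the 3 farthest from a TSS. The members and lists were chosen with earlier results of these data known. The lane was read from file names in the list headers. On chromosome X, 18 further regions met the other criteria and were not used. Alternatives were a q threshold of 0.01, equal numbers of peaks, merging over 100 bases, other list and distance limits, transcript TSSs, ranking by pileup, other fits, lanes, the replicate block and each library left out.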

Additional observations from a re-analysis of the deposited data

Results flagged for a closer look

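Among 56 sets of 5 values per genotype, 11 held a mouse whose gap to the others exceeded Dixon's 95% limit of 0.71 of the range, and chance gives about 1 in 20 such sets. Of these, 6 concerned Tip60 cKO mouse 5, the library with the fewest tags. It was lowest in the share of intergenic regions with a peak (37.2%) and in their mean rank score (30.2), and in the same measures at intragenic regions (38.4% and 31.1). It was highest in intergenic regions in 7 to 9 lists minus those in all 10, with -0.21 for relative fold enrichment and -0.54 for relative length on the log2 scale. Control mouse 4 was lowest in the share of intergenic regions with a peak (75.8%), in the mean rank score of intragenic regions (51.6) and in their relative pileup (0). Control mouse 5 was highest in relative pileup of intergenic regions (0.14). Tip60 cKO mouse 2 was highest in relative fold enrichment of intergenic minus intragenic regions (0.027). The part of depth in these values was not tested.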

How the results depend on the processing

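Of 283 alternative values of the 13 comparisons per mouse, 276 kept their direction and 1 was 0 (pileup minus intragenic in lane 7). The 6 that did not were the fold enrichment of intergenic regions minus those in all lists with equal numbers of peaks (-0.00020) and without Tip60 cKO mouse 5 (-0.0011), the same for length with equal numbers (-0.0021), without that mouse (-0.010) and in lane 7 (-0.0080), and pileup minus intragenic regions beyond 50 kb (0.030).
Unadjusted p-values crossed 0.05 as follows, the cause being not tested. With q below 0.01, relative fold enrichment differed by -0.058 (p above 0.05). With equal numbers of peaks, fold enrichment differed by -0.033 and length minus intragenic by -0.072 (both above). With 6 to 9 lists, length gave -0.16 (above) and pileup minus regions in all lists 0.082 (below). With 8 or 9 lists, fold enrichment gave -0.060 (above) and pileup -0.11 (below). Beyond 50 kb, length gave -0.14 and length minus intragenic -0.035 (both above), and pileup minus regions in all lists 0.055 (below). At least 3 mice with a peak per genotype gave -0.060 for fold enrichment (above), and means over regions -0.066 for pileup (below). The share and the rank score are given without a test. The share differed by -9.04 with equal numbers of peaks, and minus intragenic by -5.28, or by -3.69 with q below 0.01. The rank score minus intragenic was -3.10 when ranked by pileup and -3.35 beyond 50 kb.
Lanes cannot reach 0.05 (smallest p 0.1 and 0.333). In lanes 7 and 8 rank score differed by -4.52 and -18.8, fold enrichment by -0.035 and -0.11 and length by -0.12 and -0.30. Minus intragenic these were -3.68 and -4.70, -0.043 and -0.068, and -0.083 and -0.094.
Leaving out 1 mouse put p above 0.05 for 7 of 10 mice in fold enrichment and length and for none in these minus intragenic. It put p below 0.05 for pileup without Tip60 cKO mouse 1 or 2, and for pileup minus regions in all lists without Tip60 cKO mouse 3 or control 4. The ranges were -18.9 to -6.20 (share), -12.0 to -4.65 (rank score), -0.076 to -0.050 (fold enrichment), -0.075 to -0.049 (pileup) and -0.23 to -0.14 (length). Minus intragenic they were -3.71 to -1.94, -4.71 to -3.38, -0.062 to -0.045, -0.041 to -0.018 and -0.099 to -0.073, and minus regions in all lists -0.0011 to 0.042 (fold enrichment), 0.043 to 0.085 (pileup) and -0.010 to 0.080 (length).
Limma's calls, 1 lower and 1 higher, became 16 and 2 with a prior made both mean-dependent and robust (neither near Abr nor near Npas2), 0 and 0 by pileup, 8 and 2 with q below 0.01, 37 and 11 with equal numbers of peaks, 8 and 4 when fitted over regions in 5 or more lists, and 0 to 11 and 0 to 5 with 1 mouse left out. Without a model, 321 and 54 regions had a peak in 3 more lists. At an unadjusted p under 0.05, 680 were lower with the mean-dependent and robust prior, and 272 were lower and 80 higher by pileup, beside 436 and 133.
Same-numbered mice did not clearly deviate together (correlations -0.0395 to 0.0665, 2 of 5 best with their own number). They shared a lane, and such correlations cannot settle whether the numbers pair mice. With the replicate block, limma called 0 lower and 0 higher, and p cannot fall below 0.0625, which put fold enrichment (-0.065), length (-0.19) and these minus intragenic (-0.053 and -0.088) above 0.05; the rank score was -10.2, or -4.09 minus intragenic.
Of 408 values of 24 named regions, 13 changed sign. They were those without Tip60 cKO mouse 5 near Mroh4 (2.12), Ptprd (2.74), Klf4 (0.040), Gria1 (3.83), Cdh2 (16.6) and B3galt2 (2.56), without Tip60 cKO mouse 4 near B3galt2 (2.56), without control 5 near Sox9 (-6.75), and near Cdh2 by pileup (2.78) and without controls 1, 2, 4 and 5 (4.01, 5.79, 0.37 and 4.72). At the other end of these ranges, with 1 mouse left out, were -22.3 near Mroh4, -20.9 near Ptprd, -22.6 near Klf4, -19.5 near Gria1, -17.9 near Cdh2, -23.1 near B3galt2 and 25.3 near Sox9.
Depth limits the lists, since a peak missing from a library of fewer tags can be a region under its threshold.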
